A study of Homo sapiens with 35 samples.

Results

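The 10 genes described here were almost uncounted in control DU145 cells and were counted in both libraries after knockdown of ZMYND8. They were chosen from a table of 28503 genes by their deposited estimated fragment counts. A gene had to have a count of 3 or less in both control libraries and of 10 or more in both ZMYND8 knockdown libraries, with no library in which it was marked as too deep to quantify. Names of interferon, interferon-induced, OAS, GBP, collagen, HOX, histone, intergenic RNA, antisense and clone loci were set aside, as were merged loci. Of the 23050 genes left by these conditions, 7243 were at 3 or less in both control libraries, and 10 of those (0.138%) reached 10 in both knockdown libraries. GBP5 and GBP1P1 met the counts and were set aside by name. The 10 genes are TNFSF14, GPR18, ADCYAP1R1, BTK, PTGIS, CLDN16, FBXO39, OVOL1, PHYHIPL and LOC285484.

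DU145 is an established line of prostate cancer cells, taken from a metastasis in the brain. Its cells carried a short hairpin RNA against ZMYND8 (shZMYND8), against JARID1D (shJARID1D) or against luciferase (shLuciferase, the control), and each group had 2 RNA sequencing libraries. The cells were grown in medium with serum, and no further treatment, time point or clone is given for the RNA libraries. The table names its columns for knockouts and writes Rac7 for ZMYND8, but the labels describe knockdowns, and Rac7 was read as RACK7, which an antibody label gives as another name of ZMYND8. The labels do not state separate cultures for the libraries of a group, so p-values here reflect only the difference between libraries, and that may be technical.

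ZMYND8 is a chromatin protein that binds acetylated and methylated histone tails. JARID1D, encoded by KDM5D, is a demethylase of lysine 4 of histone H3, a mark found at enhancers and promoters. A gene that is silent in a cell line is often one whose expression is restricted to other tissues, and most of the 10 genes are best known outside the prostate. Their products include a cytokine of the tumour necrosis factor family, receptors coupled to G proteins, a kinase of B cells, a prostacyclin-forming enzyme, a kidney claudin and a transcription factor of epithelial differentiation.

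The deposited counts summed to 22925611 to 25001300 per library. They carry a scaling by which 1 fragment is worth 0.882 to 1.16 counts, and all 60 values of the 10 genes lay within 0.05 of a whole number of fragments once it was undone. At this depth 1 fragment equals 0.0378 to 0.0497 CPM (the count divided by the library size in units of 1000000, with sizes adjusted by edgeR's TMM factors). ZMYND8 stood at 34.3 ± 1.58 CPM in shZMYND8 and 58.7 ± 8.48 CPM in shLuciferase (SD, n = 2 each), a log2 fold change of -0.77 ± 0.13 (standard error) with an edgeR adjusted p of 0.00491. Without shZMYND8 replicate 2 that adjusted p was 0.0581. KDM5D stood at 18.7 ± 1.17 CPM in shJARID1D and 59.5 ± 2.09 CPM in shLuciferase, a log2 fold change of -1.67 ± 0.12 (edgeR adjusted p = 0.000831). The epithelial keratin gene KRT8 was at 327 to 849 CPM in the 6 libraries, whereas KLK2, a marker of luminal prostate cells, was at 0 in all of them.

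Promoter windows are shown for TNFSF14, GPR18 and CLDN16, chosen as windows that hold letters of interferon-response or activator protein 1 motifs. A window with none of these letters is shown for FBXO39, which follows an interferon-response gene among the genes of the deposited counts. Each is RefSeq sequence of build GRCh38.p14, given 5′ to 3′ on the strand of the gene, with 250 bases before the annotated start and 50 bases after it. TNFSF14 is chr19:6670109-6670408 on the minus strand, GPR18 is chr13:99258330-99258629 on the minus strand, CLDN16 is chr3:190290111-190290410 on the plus strand, and FBXO39 is chr17:6775965-6776264 on the plus strand. Capitals mark ISRE letters in TNFSF14 and GPR18, GAS letters in CLDN16, and AP-1 letters in CLDN16 and TNFSF14.
TNFSF14: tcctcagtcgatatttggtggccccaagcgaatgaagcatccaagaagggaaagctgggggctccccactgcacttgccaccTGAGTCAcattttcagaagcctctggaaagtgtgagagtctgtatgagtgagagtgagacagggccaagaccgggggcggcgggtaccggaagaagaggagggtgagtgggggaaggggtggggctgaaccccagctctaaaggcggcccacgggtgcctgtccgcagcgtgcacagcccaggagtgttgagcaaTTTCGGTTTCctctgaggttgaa
GPR18: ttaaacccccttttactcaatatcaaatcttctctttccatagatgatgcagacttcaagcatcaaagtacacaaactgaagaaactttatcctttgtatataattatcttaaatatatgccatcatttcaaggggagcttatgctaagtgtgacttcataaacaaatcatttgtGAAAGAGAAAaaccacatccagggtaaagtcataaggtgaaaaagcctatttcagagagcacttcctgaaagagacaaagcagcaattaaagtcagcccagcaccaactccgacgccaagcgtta
CLDN16: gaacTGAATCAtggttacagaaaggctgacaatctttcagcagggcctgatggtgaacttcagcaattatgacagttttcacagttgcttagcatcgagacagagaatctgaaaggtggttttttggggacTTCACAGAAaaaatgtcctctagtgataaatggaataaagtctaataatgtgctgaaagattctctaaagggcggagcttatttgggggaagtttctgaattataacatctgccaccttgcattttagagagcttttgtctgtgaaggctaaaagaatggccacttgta
FBXO39: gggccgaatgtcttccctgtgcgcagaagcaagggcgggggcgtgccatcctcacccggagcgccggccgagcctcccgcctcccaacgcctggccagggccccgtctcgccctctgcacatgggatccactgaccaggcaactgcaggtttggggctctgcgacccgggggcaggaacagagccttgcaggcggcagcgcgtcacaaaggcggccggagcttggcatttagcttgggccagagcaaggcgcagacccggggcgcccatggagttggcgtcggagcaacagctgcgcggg

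Of the 10 genes, 7 had promoter entries, 10 windows in all, since BTK, CLDN16 and TNFSF14 have more than one start. OVOL1, PTGIS and LOC285484 are named only. The interferon-stimulated response element (ISRE) was searched on both strands as GAAA, any 2 bases and GAAA again. It was found in GPR18, where the match begins at position -75 from the start, and in TNFSF14, where it lies on the reverse strand and begins at position 28. That is 2 of 7 genes and 3 of 10 windows, since both TNFSF14 windows hold the match. Of 35116 promoter windows of the same length, 3.57% hold these letters. This share is per window, and a gene with more than one window has more chances to match. The gamma-activated site (GAS), searched as TTCNNNGAA, was found in CLDN16 alone, at position -119, in 1 of the 10 windows and in 7.66% of all windows. The AP-1 letters TGANTCA were found in CLDN16, at position -246, and in TNFSF14, at position -168. They were in 3 of the 10 windows, against 7.71% of all windows. The CLDN16 matches lie in the window shown, and the other CLDN16 window held no ISRE, GAS or AP-1 letters. Which start was in use in these cells was not tested. None of these matches overlapped another, apart from the same letters read on the opposite strand.

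The kappa B letters, GGG and CC with any 5 bases between them, were in windows of 5 of the 7 genes. They were in 7 of the 10 windows and in 58.7% of all windows. The cyclic AMP response element, TGACGTCA, and the letters TATAAA were in none of the 7 genes, and in 1.85% and 11.5% of all windows. A match describes these letters and not a bound site, and binding of ZMYND8 at these windows was not analysed here. The observed over expected ratio of CpG in the windows ran from 0.113 in one BTK window to 1.07 in the other, around a median of 0.579 over all windows. It was 0.957 in PHYHIPL, 0.709 in FBXO39, 0.672 in ADCYAP1R1, 0.447 in the TNFSF14 window shown, 0.301 in GPR18 and 0.175 in the CLDN16 window shown. The set therefore held CpG-rich and CpG-poor promoters alike. RefSeq lists 9 of the 10 genes as protein-coding and LOC285484, under the symbol JAKMIP1-DT, as a long noncoding RNA. They lie on 10 different chromosomes: 19, 13, 7, X, 20, 3, 17, 11, 10 and 4, in the order named above.

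Summed over the 10 genes, 364 fragments were counted in shZMYND8, 71 in shJARID1D and 16 in shLuciferase. By library the sums were 200 and 164 in shZMYND8, 42 and 29 in shJARID1D, and 7 and 9 in shLuciferase. None of the 20 values was 0 in shZMYND8, 2 were 0 in shJARID1D and 8 were 0 in shLuciferase. The shZMYND8 and shLuciferase values chose the genes and are therefore given as a description, whereas the shJARID1D values were not used. The choice also fixed the control counts as low, which a ratio of shJARID1D to shLuciferase inherits. In bulk libraries a few cells with much of an RNA and many cells with little of it cannot be told apart.

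**Figure D1:**
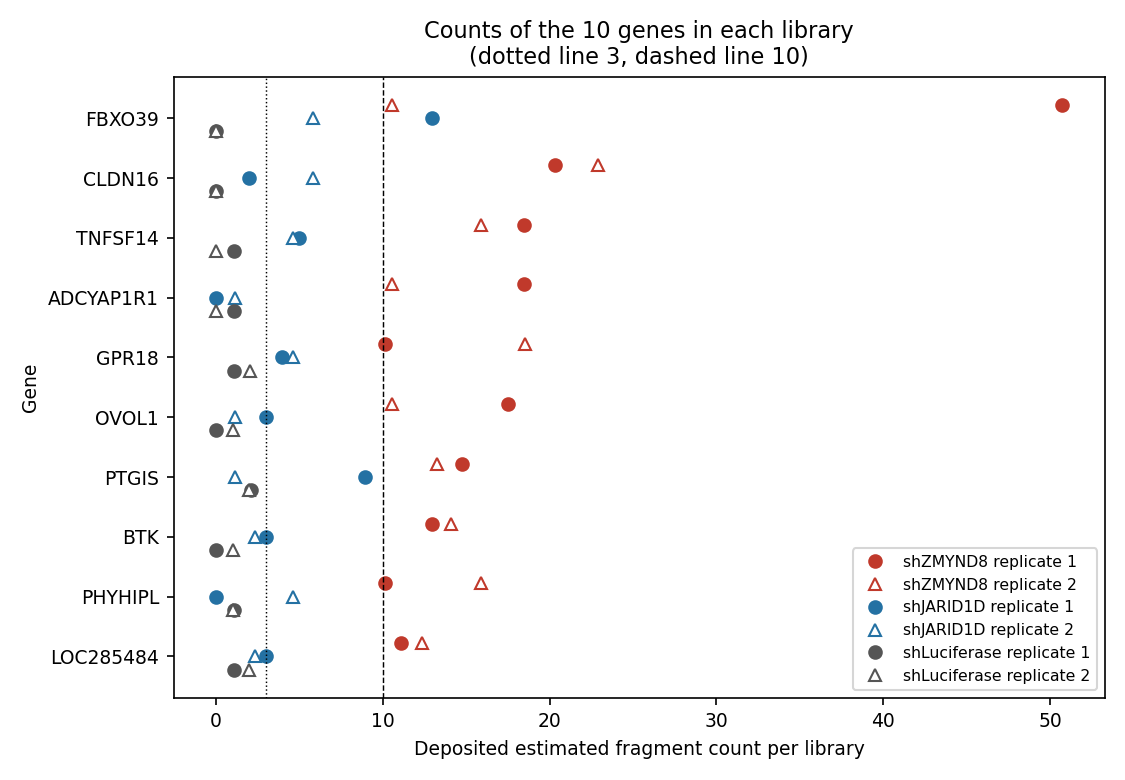
Deposited estimated fragment count (x axis) of each of the 10 genes (y axis) in each library, with colours for shZMYND8, shJARID1D and shLuciferase, filled circles for replicate 1 and open triangles for replicate 2, and lines at the bounds of 3 and 10. The shZMYND8 points lie right of 10 and the shLuciferase points left of 3 by choice. More of the shJARID1D points lie left of 3 than between the lines, with FBXO39 alone past 10 in 1 library.

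In whole fragments both shJARID1D libraries lay between those of the other groups for BTK, CLDN16, GPR18 and TNFSF14. On the deposited scale of the plot LOC285484 and OVOL1 did so too. FBXO39 overlapped shZMYND8, and ADCYAP1R1, PHYHIPL and PTGIS overlapped the control. No gene of the 10 reached a count of 10 in both shJARID1D libraries, and FBXO39 alone reached it in 1 of them. Among the 7243 genes at 3 or less in both control libraries, 5 (0.069%) reached 10 in both shJARID1D libraries: CAGE1, CYP19A1, FLJ00104, KIAA1751 and VSTM1, none of them among the 10. FBXO39, GPR18 and TNFSF14 were over 3 in both shJARID1D libraries, a bound that 77 of the 7243 genes (1.06%) passed. ADCYAP1R1, BTK, LOC285484 and OVOL1 stayed at 3 or less in both, as 6820 of the 7243 did. Most of those are genes with nothing to count: 4582 were at 0 in all 6 libraries.

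Fragments were more numerous in shJARID1D than in shLuciferase for 9 of the 10 genes and equal, at 1 in each group, for ADCYAP1R1. Among the 7243 genes 1298 had more and 577 had fewer. Both shJARID1D libraries were above both shLuciferase libraries for 7 of the 10 genes, against 5.81% of the 7243 genes and 25.8% of the 15867 genes tested. LOC285484 and OVOL1 are among the 7 on the deposited scale only, since a library of each group held the same number of fragments. Of the 7243 genes, 4582 were at 0 in all 6 libraries and could show no difference between groups. The 10 were chosen as counted in shZMYND8 and low in the control, so nothing is read from these shares. Both shZMYND8 libraries were above both shJARID1D libraries for 9 of the 10, the exception being FBXO39, against 32.7% of the genes tested. The choice of the genes as high in shZMYND8 favours that count, and nothing is read from it.

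All 10 genes passed the filter on low counts, through the group that had been chosen as high. In shJARID1D against shLuciferase, 0 of the 10 passed an adjusted p of 0.05 in edgeR's quasi-likelihood test over 15867 genes, where 2.96% of all genes passed as higher. At an unadjusted p under 0.05 there were 3, and DESeq2 gave none of the 10 an adjusted p. The count was 0 in each of the 6 fits without 1 library too. A p that misses the threshold does not show that a gene was equal in shJARID1D and shLuciferase. In shZMYND8 against shLuciferase 9 of the 10 passed, all but PTGIS, where 8.89% of all genes passed as higher, and in shZMYND8 against shJARID1D 4 passed (ADCYAP1R1, BTK, CLDN16 and OVOL1), where 8.67% of all genes passed as higher and 7.02% as lower. Nothing is read from these last counts, because the shZMYND8 values chose the genes. They also rested on single libraries. Against shLuciferase 1 gene (CLDN16) passed without shZMYND8 replicate 1, 4 without shZMYND8 replicate 2 and 6 without either shLuciferase library. Against shJARID1D 0 passed without any 1 shZMYND8 or shJARID1D library.

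**Figure D2:**
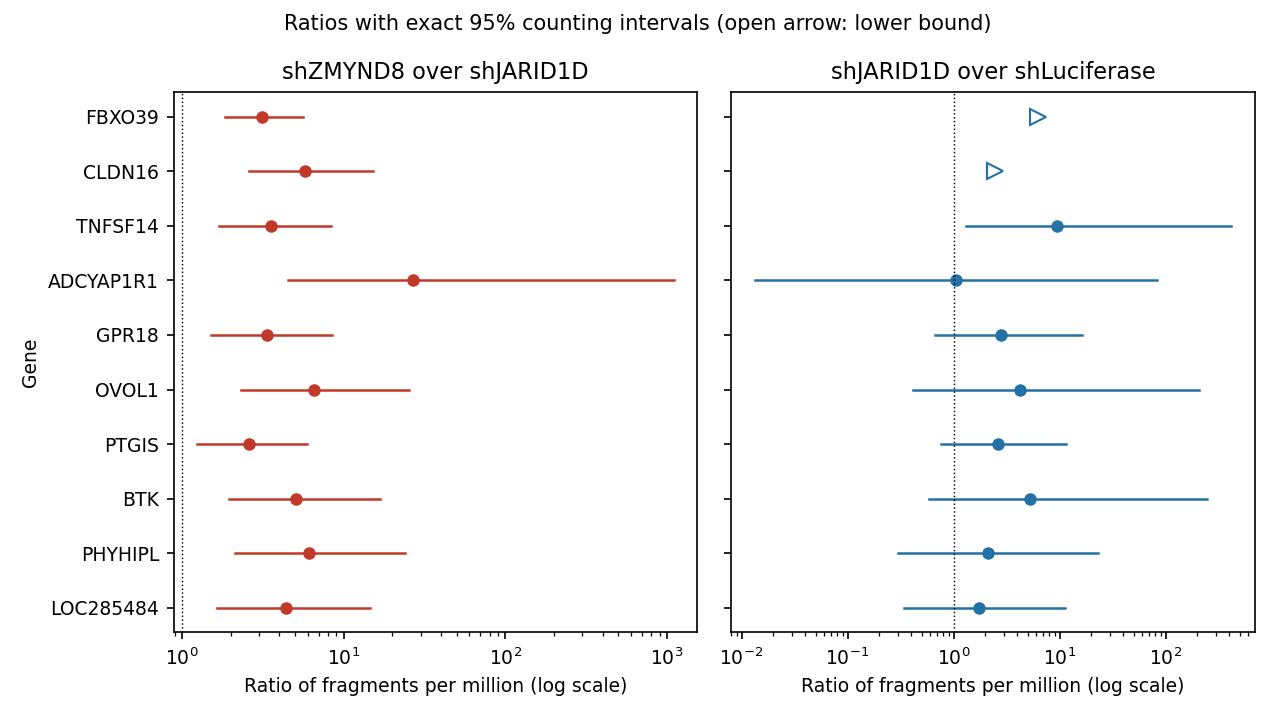
Ratios of fragments scaled to library size on a log scale (x axes) for each of the 10 genes (y axis), shZMYND8 over shJARID1D on the left and shJARID1D over shLuciferase on the right, with 95% exact counting intervals as bars, a dotted line at 1 and open arrows for lower bounds against a floor of 3 fragments over the control group. The ratios on the left run from 2.61 in PTGIS to 27 in ADCYAP1R1, and the intervals on the right are wide, as for ADCYAP1R1 from 0.0134 to 82.4. The genes were chosen as high in shZMYND8 and low in shLuciferase, so the side of 1 on which an interval lies is no finding.

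TNFSF14 encodes the cytokine LIGHT, a member of the tumour necrosis factor family made by activated lymphocytes. It had 20 and 18 fragments in the shZMYND8 libraries, 5 and 4 in the shJARID1D libraries and 1 and 0 in the shLuciferase libraries. Its shJARID1D libraries lay between those of the other groups, which the choice of the genes kept apart. The ratio of shJARID1D to shLuciferase, scaled to library size, was 9.44 with a 95% counting interval of 1.31 to 414, and that of shZMYND8 to shJARID1D was 3.56 (1.69 to 8.37). These intervals, here and for the genes that follow, are exact, cover counting error only and leave out differences between libraries. In edgeR the shJARID1D difference had a log2 fold change of 3.04 ± 1.05 and an adjusted p of 0.117.

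The receptors of LIGHT were measured at higher levels. TNFRSF14, the herpesvirus entry mediator, stood at 5.60 and 4.61 CPM in shZMYND8, 3.65 and 2.13 CPM in shJARID1D, and 2.03 and 1.57 CPM in shLuciferase. It rose in shZMYND8 (log2 fold change 1.5 ± 0.31, edgeR adjusted p = 0.0102), although without shZMYND8 replicate 1 the adjusted p was 0.0918. In shJARID1D its log2 fold change of 0.67 ± 0.31 did not pass (edgeR adjusted p = 0.232). TNFRSF6B, a decoy receptor, was at 3.8 and 0.8 CPM in shZMYND8, 1.7 and 1.6 CPM in shJARID1D, and 2.8 and 3.3 CPM in shLuciferase. It passed in neither knockdown. LTBR, the lymphotoxin beta receptor, which also binds LIGHT, stood at 180 ± 0.212 CPM in shZMYND8, 123 ± 9.20 CPM in shJARID1D and 138 ± 19.2 CPM in shLuciferase, with no call in either knockdown (in shZMYND8 it passed without shLuciferase replicate 2, edgeR adjusted p = 0.0167).

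GPR18 encodes a receptor coupled to G proteins that is found mainly in lymphoid cells. It had 11 and 21 fragments in shZMYND8, 4 and 4 in shJARID1D, and 1 and 2 in shLuciferase. Its shJARID1D libraries too lay between those of the groups kept apart by the choice. The shJARID1D to shLuciferase ratio was 2.80 with an interval of 0.672 to 16.4. GPR18 lies within UBAC2 on the opposite strand in RefSeq, and no source used here gives the strandedness of the libraries. UBAC2 stood at 70.1 ± 3.97 CPM in shZMYND8, 77.7 ± 6.74 CPM in shJARID1D and 72.4 ± 1.16 CPM in shLuciferase, and passed in neither knockdown. GPR183, the lymphoid receptor gene on its other side, was at 0.170 to 0.401 CPM in the 6 libraries and was not tested.

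ADCYAP1R1 encodes PAC1, the receptor of the neuropeptide PACAP. It had 20 and 12 fragments in shZMYND8, 0 and 1 in shJARID1D, and 1 and 0 in shLuciferase. The shJARID1D and shLuciferase libraries overlapped, and their ratio of 1.05 had an interval of 0.0134 to 82.4, too wide to show a difference in either direction. Its shZMYND8 to shJARID1D ratio was 27 (4.50 to 1098), the highest of the 10. The genes of its ligands, ADCYAP1 and VIP, and both of its neighbours, GHRHR and NEUROD6, were at 0 in all 6 libraries. The related receptor gene VIPR1 was at 0.237 and 0.416 CPM in shZMYND8, 0.043 and 0.050 CPM in shJARID1D, and 0.045 and 0.043 CPM in shLuciferase, too low to be tested.

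BTK encodes a tyrosine kinase of the Tec family that signals below the antigen receptor of B cells. It had 14 and 16 fragments in shZMYND8, 3 and 2 in shJARID1D, and 0 and 1 in shLuciferase. Its shJARID1D libraries lay between those of the groups kept apart by the choice, and the shJARID1D to shLuciferase ratio of 5.25 had an interval of 0.587 to 248. Its substrate PLCG2, a phospholipase, stood at 17.6 ± 2.04 CPM in shZMYND8, 6.38 ± 1.71 CPM in shJARID1D and 8.68 ± 0.139 CPM in shLuciferase. PLCG2 rose in shZMYND8 (1.02 ± 0.19, edgeR adjusted p = 0.00743), with an adjusted p of 0.0852 once shZMYND8 replicate 1 was left out. The adaptor BLNK was at 0 in all libraries, and the related kinases TEC and TXK and the upstream kinase SYK passed in neither knockdown.

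Other genes of B cells and leukocytes were examined beside BTK, without a test of their part in its counts. MS4A1 was at 0 in all 6 libraries, and CD79B was at 0.085 CPM or less in every library. CD79A was at 0.277 and 0.454 CPM in shZMYND8, 1.36 and 0.795 CPM in shJARID1D, and 0.936 and 0.772 CPM in shLuciferase. PTPRC, carried by all leukocytes, was at 0.040 and 0.038 CPM in shZMYND8 and at 0 in the other 4 libraries, the worth of 1 fragment each. The 6 T and NK cell markers summed to 0.040 and 0.113 CPM in shZMYND8, 0.170 and 0.645 CPM in shJARID1D, and 0.223 and 0.386 CPM in shLuciferase, with CD3D, CD3E and CD2 at 0 throughout. CD38 and CD7, which lymphocytes also carry, rose in shZMYND8 and are described with the lymphoid list.

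PTGIS encodes prostacyclin synthase, a cytochrome P450 enzyme known from vessel walls. It had 16 and 15 fragments in shZMYND8, 9 and 1 in shJARID1D, and 2 and 2 in shLuciferase. The shJARID1D libraries disagreed: replicate 1 lay between the other groups, and replicate 2, at 1 fragment, lay below the control at 2. The shZMYND8 to shJARID1D ratio of 2.61 (1.25 to 5.97) was the lowest of the 10. PTGES, which turns the same precursor into prostaglandin E, rose in shZMYND8 to 153 ± 23.7 CPM, against 79.9 ± 7.23 CPM in shLuciferase (0.93 ± 0.14, edgeR adjusted p = 0.00237), and was at 82.0 ± 2.82 CPM in shJARID1D. PTGS2, the inducible cyclooxygenase that makes the precursor, was at 1.28 and 0.994 CPM in shJARID1D, against 0.134 and 0.215 CPM in shLuciferase (2.70 ± 0.52, edgeR adjusted p = 0.0221). That call was lost when either shZMYND8 or either shJARID1D library was left out, with adjusted p from 0.0370 to 0.165 over the 6 libraries. PTGIR, the prostacyclin receptor gene, was at 0.079 CPM or less in every library.

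CLDN16 encodes a claudin of tight junctions in the kidney that is needed for magnesium reabsorption. It had 22 and 26 fragments in shZMYND8, 2 and 5 in shJARID1D and none in shLuciferase. Against a floor of 3 fragments over the control group it was at least 14.1-fold higher in shZMYND8 and at least 2.45-fold higher in shJARID1D. Its partner claudin gene CLDN19 was at 0.050 CPM or less in every library, and the kidney claudins CLDN14 and CLDN10 passed in neither knockdown.

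CLDN1, a claudin of many epithelia, overlaps the span of CLDN16 on the opposite strand in RefSeq. It stood at 107 and 113 CPM in shZMYND8, 39.4 and 52.2 CPM in shJARID1D, and 22.1 and 24.7 CPM in shLuciferase. CLDN1 rose in shZMYND8 (2.24 ± 0.15, edgeR adjusted p = 0.000262) and in shJARID1D (0.97 ± 0.15, edgeR adjusted p = 0.0129). The shJARID1D call was lost without shJARID1D replicate 2, at an adjusted p of 0.0860. Since strand is not known, fragments of the 2 genes cannot be told apart where they overlap.

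FBXO39 encodes an F-box protein, of the family that brings substrates to SCF ubiquitin ligases. It had 55 and 12 fragments in shZMYND8, 13 and 5 in shJARID1D, and none in shLuciferase. The shZMYND8 libraries differed most for this gene, and replicate 1 of shJARID1D, at a count of 12.9, was above replicate 2 of shZMYND8, at 10.6. It was at least 19.7-fold higher in shZMYND8 and at least 6.30-fold higher in shJARID1D than the floor of 3 fragments over the control group. SKP1, CUL1 and RBX1, the core of the ligase, were at 47.0 to 147 CPM in the 6 libraries and passed in neither knockdown, although SKP1 passed as lower in shZMYND8 without shLuciferase replicate 2 (edgeR adjusted p = 0.0313).

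XAF1, an interferon-induced gene of apoptosis, is the neighbour before FBXO39 on the same strand. It stood at 38.4 and 14.9 CPM in shZMYND8, 6.69 and 3.28 CPM in shJARID1D, and 1.25 and 0.043 CPM in shLuciferase. XAF1 rose in shZMYND8 (5.37 ± 0.73, edgeR adjusted p = 0.00163), and its log2 fold change of 2.95 ± 0.78 in shJARID1D did not pass (edgeR adjusted p = 0.0572) unless shLuciferase replicate 1 was left out (0.0134). In both knockdowns replicate 1 was the higher library for FBXO39 and for XAF1. Whether fragments of FBXO39 come from transcripts that begin at XAF1 was not tested. The neighbour on the other side, TEKT1, was at 0 in all libraries.

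OVOL1 encodes a zinc finger transcription factor that promotes epithelial differentiation, in skin above all. It had 19 and 12 fragments in shZMYND8, 3 and 1 in shJARID1D, and 0 and 1 in shLuciferase. Its shJARID1D libraries were at or just above the control, with a ratio of 4.20 and an interval of 0.415 to 207. The paralog OVOL2 went the other way, at 0.119 and 0.189 CPM in shZMYND8, 0.298 and 0.447 CPM in shJARID1D, and 1.02 and 0.472 CPM in shLuciferase. Its fall in shZMYND8 (-2.27 ± 0.64, edgeR adjusted p = 0.0381) was lost in 5 of 6 fits without 1 library, with adjusted p up to 0.238. Over the 9 tested of 29 listed genes of keratinocyte differentiation, the median log2 fold change was -0.03 in shZMYND8 and 0.16 in shJARID1D.

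PHYHIPL encodes a relative of PHYHIP, a brain protein that binds the peroxisomal enzyme PHYH. It had 11 and 18 fragments in shZMYND8, 0 and 4 in shJARID1D, and 1 and 1 in shLuciferase, so the shJARID1D libraries lay on both sides of the control. The ratio of shJARID1D to shLuciferase was 2.10 (0.301 to 23.2). PHYHIP was at 3.29 to 4.81 CPM in the 6 libraries and PHYH at 12.9 to 17.6 CPM, and neither passed in a knockdown. FAM13C, which overlaps PHYHIPL on the opposite strand in RefSeq, was at 0 in all libraries.

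LOC285484 is a noncoding transcript that RefSeq names for its divergent position next to JAKMIP1. It had 12 and 14 fragments in shZMYND8, 3 and 2 in shJARID1D, and 1 and 2 in shLuciferase. The shJARID1D and shLuciferase libraries met at 2 fragments, and their ratio was 1.75 (0.340 to 11.3). JAKMIP1 itself was at 2.29 and 3.18 CPM in shZMYND8, 1.41 and 1.09 CPM in shJARID1D, and 1.83 and 3.0 CPM in shLuciferase, and passed in neither knockdown. Without shLuciferase replicate 1 it passed as lower in shJARID1D (edgeR adjusted p = 0.0463).

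The genes on either side of the 10 were then examined to see whether their surroundings differed too. A neighbour was the nearest gene on a side, in RefSeq order, that the deposited counts held. Genes marked as too deep to quantify and genes named MIR or SNOR were passed over, so a neighbour need not be adjacent in RefSeq. Of 20 such neighbours, 14 could be tested. In shZMYND8, 6 were higher and 2 lower, against 8.89% and 7.34% of all genes, with a median log2 fold change of 0.17 beside -0.01 over all genes. In shJARID1D, 2 were higher and 1 lower, against 2.96% and 2.79% of all genes, with a median of 0.01 beside 0.00. The 3 neighbours with the largest rises in shZMYND8 were XAF1, C3 and CLDN1, next to FBXO39, TNFSF14 and CLDN16.

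**Figure D3:**
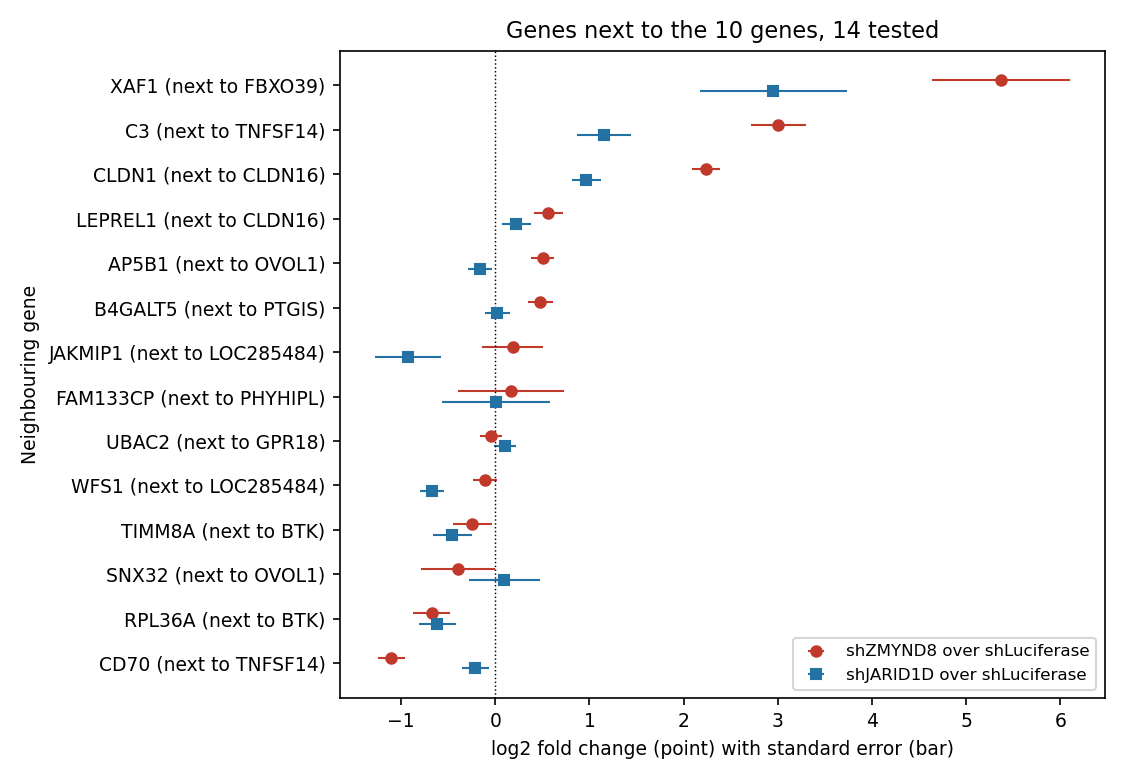
Log2 fold changes over shLuciferase (x axis, points) with standard errors (bars) for the 14 tested neighbours of the 10 genes (y axis), red circles for shZMYND8 and blue squares for shJARID1D. XAF1, C3 and CLDN1 stand apart on the right with the shZMYND8 value above the shJARID1D value, CD70 lies lowest in shZMYND8, and the other 10 lie within 1 log2 unit of 0 in both knockdowns.

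C3, the central protein of complement, follows TNFSF14. It stood at 272 and 197 CPM in shZMYND8, 64.5 and 65.1 CPM in shJARID1D, and 39.5 and 18.8 CPM in shLuciferase. C3 rose in shZMYND8 (3.01 ± 0.30, edgeR adjusted p = 0.000546). Its rise in shJARID1D (1.15 ± 0.28, edgeR adjusted p = 0.0461) was lost without either shZMYND8 or either shJARID1D library, with adjusted p from 0.00203 to 0.184 over the libraries left out. CD70, another ligand of the tumour necrosis factor family on the other side of TNFSF14, moved in the opposite direction. It was at 52.0 and 47.8 CPM in shZMYND8, 86.1 and 99.4 CPM in shJARID1D, and 94.5 and 120 CPM in shLuciferase, and fell in shZMYND8 (-1.11 ± 0.14, edgeR adjusted p = 0.00140).

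**Figure D4:**
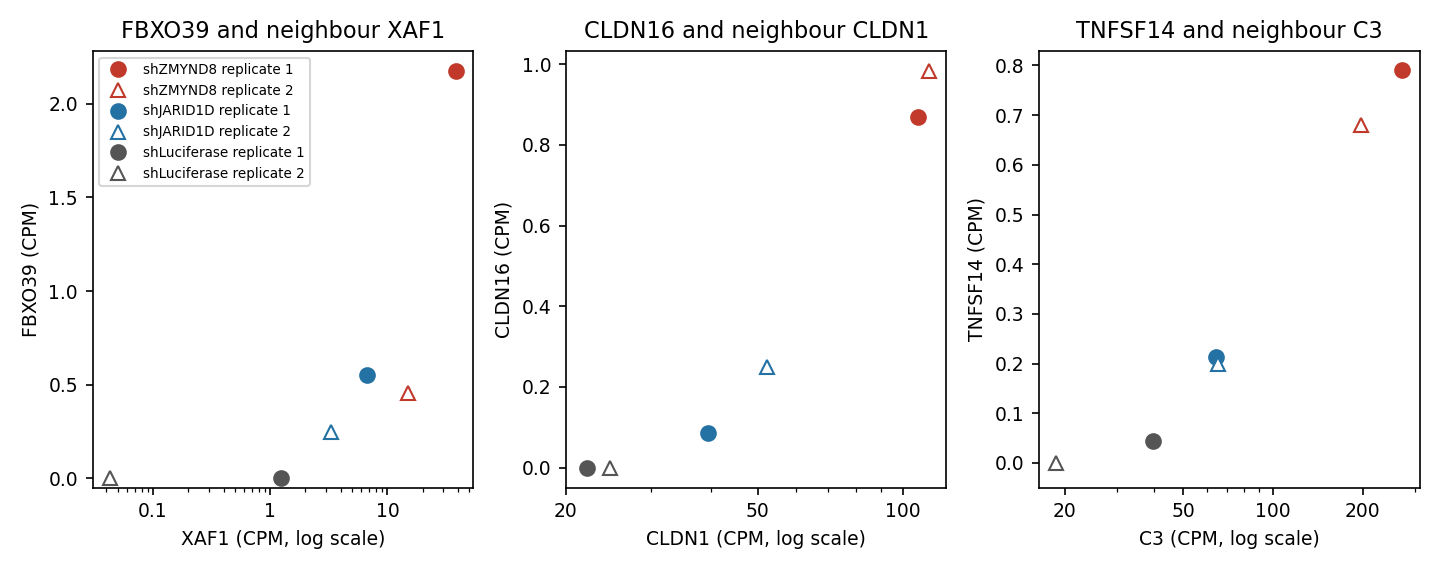
Level of FBXO39, CLDN16 and TNFSF14 (y axes, CPM) against that of the neighbours XAF1, CLDN1 and C3 (x axes, CPM on a log scale), 1 point per library, with colours for the 3 groups, filled circles for replicate 1 and open triangles for replicate 2. The shZMYND8 libraries lie at the right, the shLuciferase libraries at the left and near 0, and the shJARID1D libraries between them on the x axis. The 10 genes were chosen by their y values.

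The other called neighbours moved less. LEPREL1, AP5B1 and B4GALT5, next to CLDN16, OVOL1 and PTGIS, had log2 fold changes of 0.57 ± 0.15, 0.50 ± 0.13 and 0.48 ± 0.13 in shZMYND8, and RPL36A, next to BTK, had -0.68 ± 0.20. Their edgeR adjusted p ran from 0.0250 to 0.0435, and each of the 4 lost its call in 3 or more of the 6 fits without 1 library. WFS1, next to LOC285484, was lower in shJARID1D (-0.67 ± 0.13, edgeR adjusted p = 0.0200), a call lost without either shJARID1D library. The neighbours of ADCYAP1R1, GHRHR and NEUROD6, were uncounted, so the gain of ADCYAP1R1 was not shared by either of them.

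Known partners of the 10 genes, 34 in all, included 21 that could be tested. In shZMYND8, 3 were higher (TNFRSF14, PLCG2 and PTGES) and 1 was lower (OVOL2), and in shJARID1D 1 was higher (PTGS2). Over all genes 8.89% were higher and 7.34% lower in shZMYND8, and 2.96% were higher in shJARID1D, so these shares were near the background. Their median log2 fold change was 0.01 in shZMYND8 and 0.04 in shJARID1D. The ligand genes of ADCYAP1R1 stayed uncounted, whereas TNFRSF14, LTBR and TNFRSF6B, receptor genes of TNFSF14, were counted in every library.

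Lists of tissue-restricted genes were examined for other silent genes. Of 49 lymphoid and myeloid genes, 29 were at 3 or less in both control libraries, and 0 of these reached 10 in both libraries of a knockdown. The same held for 0 of 22 such neuronal genes, 0 of 19 such keratinocyte genes, 0 of 24 such cancer-testis antigens and 0 of 17 such chemokines. Over all 7243 silent genes the shares were 0.138% in shZMYND8 and 0.069% in shJARID1D, so that lists of this size say little. These lists do not hold any of the 10 genes. Among the 15 lymphoid and myeloid genes that could be tested, 5 were higher in shZMYND8 (CD38, CD7, CD74, CIITA and ITGAM) with a median log2 fold change of 0.39 over the list, and 1 was higher in shJARID1D (HLA-DRB1) with a median of 0.71. Over all genes 8.89% were higher in shZMYND8 and 2.96% in shJARID1D, and the medians over all genes were -0.01 and 0.00.

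CD38, an enzyme that consumes NAD and marks lymphocytes, was at 4.66 and 3.29 CPM in shZMYND8, 0.980 and 0.944 CPM in shJARID1D, and 0.713 and 0.644 CPM in shLuciferase. It rose in shZMYND8 (2.54 ± 0.33, edgeR adjusted p = 0.00138) in every fit without 1 library. CD7, a T cell surface protein, was at 1.82 and 1.06 CPM in shZMYND8, 0.170 and 0.099 CPM in shJARID1D, and 0.134 and 0.172 CPM in shLuciferase (3.22 ± 0.56, edgeR adjusted p = 0.00508, and 0.0777 without shZMYND8 replicate 1). The calls of CD74, CIITA, ITGAM and HLA-DRB1 were each lost in at least 2 of the 6 fits without 1 library. Of 10 neuronal genes tested, 2 were higher in shZMYND8, and MAP2, a microtubule protein of dendrites, rose the more, at 2.17 ± 0.27 (edgeR adjusted p = 0.00105). MAP2 also rose in shJARID1D (1.27, edgeR adjusted p = 0.0281), a call lost without either shZMYND8 or either shJARID1D library. Of 12 chemokine genes tested 5 were higher in shZMYND8, and of 3 cancer-testis antigens tested 1, BRDT, was lower. The same shares of all genes, 8.89% higher and 7.34% lower in shZMYND8, stand beside these counts and that of the neuronal genes.

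Genes of the interferon response were examined as a listed group. The 34 listed interferon-stimulated genes summed to 5696 and 3280 CPM in shZMYND8, 3011 and 2564 CPM in shJARID1D, and 1550 and 1147 CPM in shLuciferase. Of the 32 tested, 32 were higher in shZMYND8 and 15 in shJARID1D, against 8.89% and 2.96% of all genes. Their median log2 fold change was 2.15 in shZMYND8 and 1.43 in shJARID1D. The order of shZMYND8 and shLuciferase was fixed for the 10 genes by their choice, so nothing is read from its likeness to this sum. Within each group replicate 1 was the higher library for the interferon sum. Fragments summed over the 10 genes were higher in replicate 1 within shZMYND8 and shJARID1D, and in replicate 2 within shLuciferase, at 7 and 9. In shZMYND8 that order rested on FBXO39, with 55 and 12 fragments, and without FBXO39 replicate 2 was the higher library. The part of the interferon response in the gain of the 10 genes was not tested.

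The bounds of the rule cut through a continuum of low counts. Just inside the upper bound lay PHYHIPL and GPR18, each with 10.2 in shZMYND8 replicate 1, and ADCYAP1R1, FBXO39 and OVOL1, each with 10.6 in replicate 2. Just outside it lay ISM1 and NFAM1, each with 13.8 and 8.81 in shZMYND8, DLX2 with 12.9 and 8.81, GRID2IP with 8.30 and 11.5, and ESM1 with 13.8 and 7.93. SDK2, ITGB6, PCDHB11, LIN28B and MEFV missed only the control bound, with 3.01 in shLuciferase replicate 2, which is 3 fragments. On the scale of whole fragments 27 genes met the rule, the 10 among them. The same bounds turned round were met by 5 genes that were counted in both control libraries and lost in shZMYND8 (C17orf65, CALHM3, FAM49A, ITGB1BP2 and RPL17-C18orf32) and by 3 lost in shJARID1D (CPAMD8, PHOSPHO2-KLHL23 and PROC).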

How the data were processed

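RNA was sequenced from DU145 cells in 6 libraries, 2 per group. The other 29 of 35 samples of the series were not analysed here. The deposited values are expected counts, fragment counts estimated per gene and library, per the file headers of a Cuffdiff count-tracking table. Per the submitters' processing notes the authors used Cuffdiff, Bowtie 1.1.2, TopHat2 2.0.12 and edgeR 3.12.0 with build hg19, in steps that the notes do not describe. No source used here gives the gene annotation, the strandedness or any selection of polyadenylated RNA, which leaves overlapping genes uncertain. Estimated counts also divide reads between near copies. The 18 variance columns were not used, and 60 genes marked HIDATA in a library were left out.

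Whole fragments were recovered by dividing each library by the value of 1 fragment, taken as its most frequent deposited count near 1. Ratios of fragments carry exact binomial 95% intervals scaled by effective library sizes, and a fold against a group at 0 uses a floor of 3 fragments over the group. Such intervals and floors cover counting error only, since reads without molecular identifiers are not independent molecules. Counts were rounded and fitted in R 4.3.3 by edgeR 4.0.16 (quasi-likelihood test, TMM factors, which are trimmed means of log ratios, filterByExpr, all 6 libraries in 1 fit with 3 residual degrees of freedom, Benjamini-Hochberg over 15867 of 28443 genes, threshold 0.05). Standard errors come from that fit and SDs from the 2 libraries of a group. The fit was tested on simulated data. Alternatives were DESeq2 1.42.0, other scalings, no filter, other bounds, a replicate block and each library left out.

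The 10 genes, the gene lists and the tests were chosen with earlier results of these data known, and the partners and neighbours after the 10 genes had been seen. Values per library were to be given for the 15 genes with the highest mean in shZMYND8, the 10 with the highest mean in shJARID1D and up to 3 of each role, which covers all 10 genes. Some listed marker genes are not reported here. List genes named with values were chosen after their values were seen. Names, neighbours and promoter windows come from RefSeq tables of GRCh38.p14, and no coordinates were converted between builds.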

Additional observations from a re-analysis of the deposited data

How the results depend on the processing

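The number of genes found depended on the bounds. It was 10 with the bounds used, 2 (CLDN16 and FBXO39) with a control bound of 1, which admits no control fragment, 44 with a control bound of 5, 61 with a shZMYND8 bound of 5, 1 (CLDN16) with a shZMYND8 bound of 20, and 27 on the scale of whole fragments. Without 1 of the 4 libraries it was 17 to 52. Leaving out a library only loosens the rule, so all 10 genes had to be found in each of these 4 cases. It was also 10 on library sizes adjusted by the trimmed mean of M values or with HIDATA genes kept, and 12 with no exclusion of names. The count of genes at the bound in both shJARID1D libraries was 0, and became 1 (FBXO39) at a bound of 5 or without shJARID1D replicate 2 (0 to 1 over the libraries left out).

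The number of genes passing edgeR's threshold was less stable. In shJARID1D against shLuciferase 912 passed, against 77 at a threshold of 0.01, 72 with no filter, 449 with only the groups compared and 16 to 2145 without 1 library. In shZMYND8 against shLuciferase 2574 passed, against 1002 at 0.01, 1442 with no filter and 642 to 3222 without 1 library. In shZMYND8 against shJARID1D 2490 passed, against 761 at 0.01, 1127 with no filter, 4252 with only the groups compared and 551 to 4191 without 1 library. Scaling by library totals alone changed the split of higher to lower genes to 709 and 294 in shJARID1D against shLuciferase (469 and 443 otherwise) and to 1140 and 1392 in shZMYND8 against shJARID1D (1376 and 1114 otherwise). Where 1 library of a group was left, it was assumed to vary like the other groups. Apart from fewer libraries or other genes tested, the cause was not tested.

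The replicate numbers were not shown to pair the libraries: same-numbered libraries correlated in their deviations at 0.17, 0.09 and 0.10 over 15867 genes, with 2 pairs in each case. With a replicate block 2073 genes passed in shJARID1D against shLuciferase, 3699 in shZMYND8 against shLuciferase and 3785 in shZMYND8 against shJARID1D. With the block FBXO39 passed in shJARID1D against shLuciferase (adjusted p = 0.0149), where 0 of the 10 genes passed otherwise, and 10 of the 10 passed in shZMYND8 against shLuciferase, PTGIS included (0.0337). Of the 10 genes, 5 passed in that comparison and 0 in shZMYND8 against shJARID1D with no filter on low counts, against 9 and 4 with it. The alternatives counted next include a stricter threshold, which leaves fold changes as they are. They also include fits without a library outside the comparison, which hardly change them. Of 375 alternative log2 fold changes of the 10 genes, 19 moved by more than their standard error, and of 1713 of the neighbours, partners and list genes 163 lost a call, 26 gained one and 0 turned round.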
